A study of Homo sapiens with 24 samples.

Results

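The heat shock genes measured here were 10 of the 26641 genes in the count table: HSF1, HSPA8, HSPH1, HSP90AA1, HSP90AB1, HSPB1, DNAJB1, DNAJA1, HSPD1 and BAG3. They were found in the table by gene symbol. All 10 were in the table, and all 10 were among the 14739 genes that passed the filter on low counts. The set carried the working name of cytosolic heat shock genes, but HSPD1 encodes the chaperonin of the mitochondrial matrix and HSF1 encodes a transcription factor, so the genes are called heat shock genes below.

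Heat shock proteins are chaperones that hold and refold unfolded proteins, and HSF1 is the transcription factor that raises their genes when unfolded protein accumulates in the cytosol. In unstressed cells HSF1 is held inactive by chaperones, and when released it forms trimers that bind heat shock elements, which are inverted repeats of the bases GAA. Unfolded protein in the endoplasmic reticulum (ER) is read by a separate set of sensors, among them the kinase whose signal runs through ATF4 and CHOP. Many of the same chaperones are made at high levels in growing cancer cells without any heat.

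RNA came from MB468 cells, the MDA-MB-468 line of triple-negative breast carcinoma, which depend on Met for growth. The comparison line was MB468res-R8, 1 Met-independent clone that grew out of MB468 under long culture in homocysteine (Hcy). Cells of each line were taken from Met+ medium (100 µM Met) at 0 h, or 0.5, 2 and 12 h after Met-Hcy+ medium (370 µM Hcy in place of Met) was given, with 3 libraries in each of the 8 groups. All cells grew in DMEM with dialyzed serum, vitamin B12, glutamine and cysteine. No Met+ library was analysed at 0.5, 2 or 12 h, so the loss of Met and the time or handling since the switch cannot be told apart, and the labels do not say whether the 3 libraries of a group were separate cultures, so the p-values measure the spread between these libraries. Because whole cultures were measured, a change in the RNA of every cell and a change in the mix of cells cannot be told apart.

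The libraries held 11712531 to 36401605 gene counts, with a median of 20451867. Markers of the labelled line were present, with EGFR at 2122 to 4238 CPM (counts scaled to the size of each library) and KRT5 at 1536 to 2804 CPM, while ESR1 lay at 4.20 to 22.6 CPM and PGR, DCN, COL1A2, PTPRC and HBB at 0.197 CPM or less in every library. ERBB2, a receptor gene planned as low or absent in a triple-negative line, lay at 38.8 to 98.1 CPM (median 81.6). Of the other stromal and endothelial markers, COL1A1 lay at 14.4 to 73.0 CPM, PECAM1 at 0.341 to 2.65 CPM and CDH5 at 0 to 2.70 CPM, and their part in the results was not tested. The library of MB468 at 2 h numbered replicate 2 stood apart, with 16004 normalized counts of the small nuclear RNA RN7SK against 58.8 to 229 in the other 23 libraries, and results at 2 h are given without it where a call changed. Normalized counts are counts scaled to a common library size of 22763665. A gene is called higher or lower at an adjusted p under 0.05 in edgeR's quasi-likelihood test (Benjamini-Hochberg, over the 14739 genes tested), and log2 fold changes are given with their standard error (SE).

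The promoters of the genes differ in whether they hold the sequence that HSF1 is known to bind, and the sites are shown for that reason. The 250 bases before each RefSeq start site on GRCh38.p14 were searched on both strands for 3 alternating units of the element, spelled GAANNTTCNNGAA or TTCNNGAANNTTC. They occurred in a window of 0.557% of the 27305 genes with one (0.441% of 35116 windows) and of 4 of the 9 heat shock genes that had one, HSPA8, HSP90AA1, HSP90AB1 and HSPD1. No window was held for HSF1. Each site is written 5′ to 3′ on the strand of the gene, with the matched bases in capitals.
HSPA8, chr11:123062346-123062374, minus strand: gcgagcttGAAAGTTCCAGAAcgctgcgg
HSPA8, chr11:123062171-123062199, minus strand: cgggccccTTCTGGAAGGTTCtaagatag
HSP90AA1, chr14:102087112-102087140, minus strand: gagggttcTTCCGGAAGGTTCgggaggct
HSP90AB1, chr6:44247770-44247798, plus strand: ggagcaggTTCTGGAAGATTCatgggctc
HSP90AB1, chr6:44247823-44247851, plus strand: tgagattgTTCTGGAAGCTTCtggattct
HSPD1, chr2:197500062-197500090, minus strand: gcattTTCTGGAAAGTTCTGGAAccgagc

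The nearer HSPA8 site began 55 bases before the start site and the HSP90AA1 site 88 bases before it, both counted from the start of the MANE Select transcript. The HSPD1 run held 2 overlapping matches and began 245 bases before the start. It also lay before the annotated start of the neighbouring gene HSPE1 (chr2:197500140, plus strand). The HSP90AB1 sites lay before a start site downstream of the MANE Select one, and the window of the MANE Select start held no match. HSPB1, DNAJB1 and DNAJA1 held only the 2-unit form, GAANNTTC or TTCNNGAA, which is part of the 3-unit form and is found for 14% of genes (11.6% of all windows).
HSPB1, chr7:76302480-76302509, plus strand: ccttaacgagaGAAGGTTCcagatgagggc
DNAJB1, chr19:14518456-14518485, minus strand: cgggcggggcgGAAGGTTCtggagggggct
DNAJB1, chr19:14518426-14518455, minus strand: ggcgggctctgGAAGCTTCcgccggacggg
DNAJA1, chr9:33025064-33025093, plus strand: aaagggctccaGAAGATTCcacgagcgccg

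The windows of HSPH1 and BAG3 held neither form, and the HSPH1 window lay 484 bases from its MANE Select start. These matches are descriptions of letters and not of binding, which was not measured. Of the other gene lists described below, HSPA6 and DNAJB6 among HSP70 partners and CHORDC1 among HSP90 partners held the 3-unit form. SERPINH1 held it too, and was placed in the HSF list, which is not limited to regulators. The TRiC, ER chaperone and ATF4 lists, as written, held 0 genes with the 3-unit form, among 12, 27 and 22 genes that had a window. The lists of other small heat shock proteins and of mitochondrial chaperones also held 0, among 6 and 12.

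In Met+ medium the 10 genes spanned a wide range of levels. Per kilobase of MANE Select transcript, HSPA8, the constitutive cytosolic HSP70, was the most abundant in MB468 at 1309 ± 44.1 CPM per kb (SD, n = 3), followed by HSP90AB1, the constitutive HSP90, at 1044 ± 26.1, and HSP90AA1, the inducible HSP90, at 628 ± 19.3. HSPD1 (the mitochondrial HSP60) at 532 ± 13.7 and HSPB1 (the small heat shock protein HSP27) at 482 ± 35.5 came next, and their libraries did not overlap. DNAJB1 at 141 ± 10.4 and DNAJA1 at 127 ± 7.35, both J-domain partners that bring clients to HSP70, overlapped each other. HSPH1, an HSP110 that exchanges the nucleotide of HSP70, stood at 74.0 ± 3.50 CPM per kb, HSF1 at 65.9 ± 0.792 and BAG3, a cochaperone that links HSP70 to autophagy, at 35.5 ± 1.31. In MB468res-R8 the order was the same except that HSPB1, at 901 ± 22.1 CPM per kb, came after HSPA8 and HSP90AB1, and HSF1, at 70.8 ± 1.61, stood above HSPH1 at 53.2 ± 1.95. GENCODE lists 17 numbered pseudogenes of HSPA8, 18 of HSPD1 and 6 of DNAJA1, and how many of their reads were shared with such copies was not measured.

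**Figure D1:**
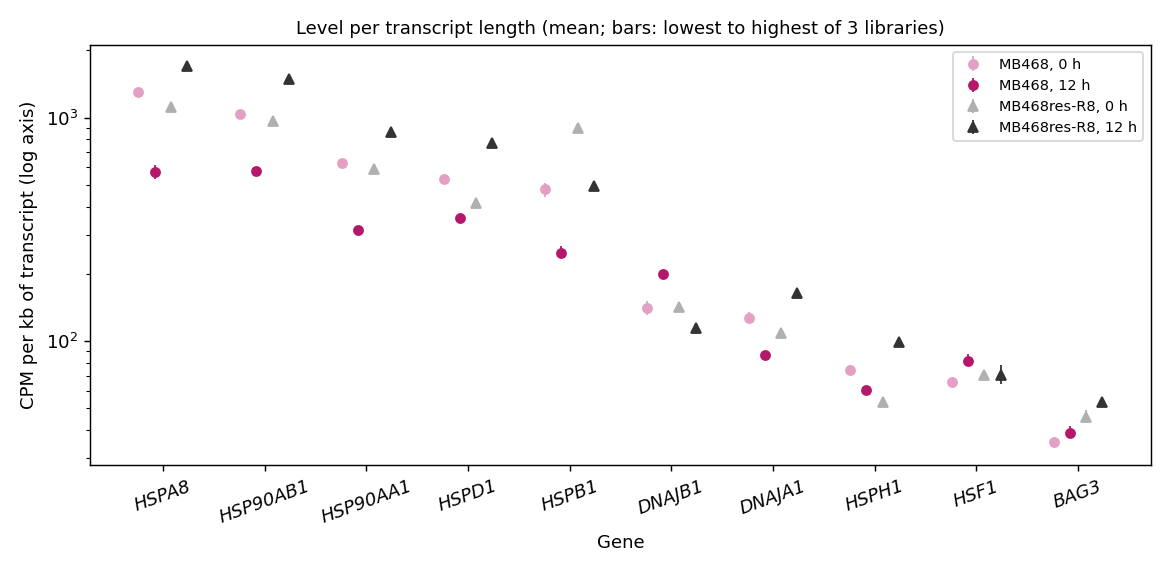
Level of each heat shock gene in CPM per kilobase of MANE Select transcript (vertical log axis), by gene (horizontal axis, ordered by the level in MB468 at 0 h), for MB468 (circles) and MB468res-R8 (triangles) at 0 and 12 h. Points are means of 3 libraries and bars run from the lowest to the highest. HSPA8 fell from 1309 to 574 CPM per kb in MB468 and rose from 1115 to 1704 in MB468res-R8.

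The comparison of the lines in Met+ medium asks how the Met-independent clone differed before any switch. HSPB1, which keeps unfolded proteins from aggregating, was higher in MB468res-R8, with normalized counts of 16032, 16270 and 15506 against 9039, 7824 and 8708 in MB468. HSPH1 was lower, at 6340, 6121 and 6585 against 8586, 9311 and 8589. In each gene the 3 libraries of the lines did not overlap, which was so for 60.0% of all genes tested. The log2 fold change was 0.90 (SE 0.08, edgeR adjusted p = 3.69e-08) for HSPB1 and -0.48 (SE 0.04, adjusted p = 6.74e-12) for HSPH1.

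In all, 7 of the 10 genes differed between the lines at 0 h, 2 higher and 5 lower in MB468res-R8, beside 53.6% of all genes tested (25.3% higher and 28.3% lower). BAG3 was the other gene that was higher, with a log2 fold change of 0.36 (SE 0.07, edgeR adjusted p = 3.24e-05). HSPD1 at -0.36, HSPA8 at -0.23 and DNAJA1 at -0.22 were lower, and HSP90AB1 was lower by the least, at -0.11. The HSP90AB1 call was lost without MB468 replicate 1 (edgeR adjusted p = 0.0898), without MB468 replicate 2 (0.111) or without MB468res-R8 replicate 2 (0.152). HSF1 (0.10, and -0.19 with spike-in scaling), HSP90AA1 (-0.09) and DNAJB1 (0.01) did not pass the test. HSP90AA1 passed without MB468 replicate 3 (-0.11, edgeR adjusted p = 0.0481), with only the compared groups in the fit (-0.08, 0.0450) and with spike-in scaling (-0.38, 0.00622). With the libraries scaled to the spike-in RNAs in place of the genes, the log2 fold change of BAG3 was 0.06 and no longer passed (edgeR adjusted p = 0.696), and that of DNAJB1 was -0.28 and did (0.0499).

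**Figure D2:**
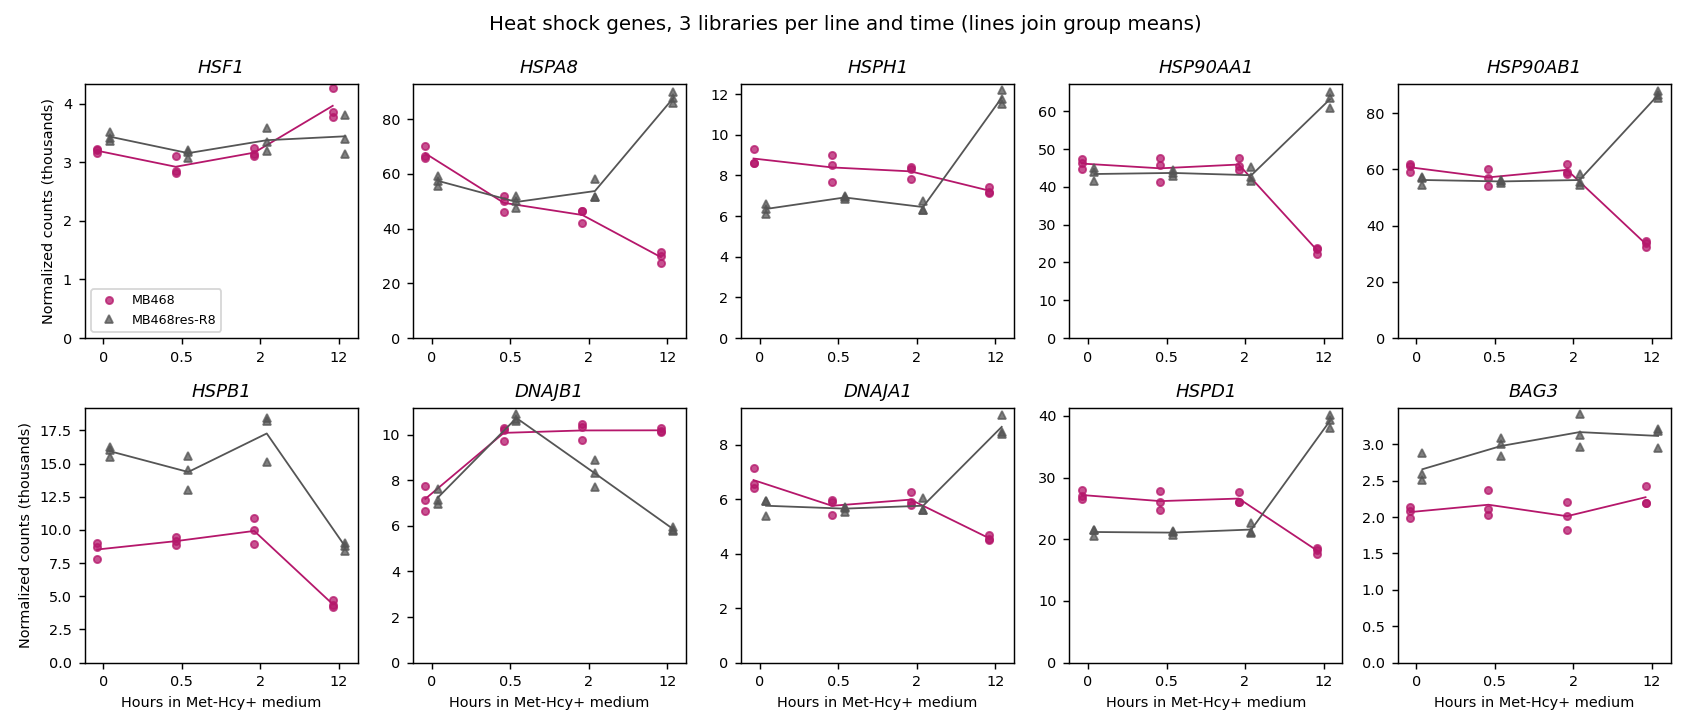
Normalized counts (vertical axes, starting at 0) of the 10 heat shock genes by hours in Met-Hcy+ medium (horizontal axes, equally spaced sampling times), with 1 point per library for MB468 (circles) and MB468res-R8 (triangles) and lines through the means of 3 libraries. At 12 h all MB468 libraries of HSPA8, HSPH1, HSP90AA1, HSP90AB1, DNAJA1 and HSPD1 lay below all MB468res-R8 libraries, and DNAJB1 rose in both lines by 0.5 h.

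The libraries at 0.5 and 2 h ask what moved first. DNAJB1, the J-domain partner that recruits HSP70 to unfolded proteins, rose in both lines at 0.5 h. It went from 6670, 7155 and 7734 normalized counts at 0 h to 10195, 9742 and 10310 at 0.5 h in MB468, and MB468res-R8 moved from 7136, 7624 and 6967 to 10905, 10615 and 10686. All libraries at 0.5 h lay above all libraries at 0 h. A lack of overlap, in either direction, was found for 43.6% of genes tested in MB468 and 45.1% in MB468res-R8. The log2 fold changes were 0.49 (SE 0.05, edgeR adjusted p = 2.39e-11) in MB468 and 0.57 (SE 0.05, adjusted p = 3.55e-13) in MB468res-R8, and the difference between the lines of 0.08 (SE 0.06) did not pass (adjusted p = 0.678).

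By 2 h the lines had separated for DNAJB1. Its normalized counts stayed at 10325, 10470 and 9772 in MB468, while in MB468res-R8 they were 8316, 8909 and 7690, between the levels at 0 h and at 0.5 h. The log2 fold change from 0 h was 0.50 (SE 0.05, edgeR adjusted p = 3.70e-11) in MB468 and 0.20 (SE 0.05, adjusted p = 0.00447) in MB468res-R8. The difference of -0.31 (SE 0.07) passed the test, with an edgeR adjusted p of 0.00176, but was 0.06 and did not pass with spike-in scaling (adjusted p = 0.780). Spike-in scaling also ended the calls of DNAJB1 in MB468 at 0.5 h (0.29, edgeR adjusted p = 0.0852) and 2 h (0.09, adjusted p = 0.510). The call in MB468res-R8 at 2 h was lost without the replicate 3 of 0 h (0.17, edgeR adjusted p = 0.0608), without the replicate 2 of 2 h (0.14, adjusted p = 0.131) and with spike-in scaling (0.16, adjusted p = 1).

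HSPA8 fell early in MB468. Its normalized counts were 65782, 70069 and 66608 at 0 h, 50221, 52052 and 45984 at 0.5 h, and 46537, 46474 and 41895 at 2 h. Neither time overlapped 0 h, which was so for 43.6% of genes tested at 0.5 h and 29.1% at 2 h. The log2 fold change was -0.45 (SE 0.05, edgeR adjusted p = 2.35e-07) at 0.5 h and -0.59 (SE 0.06, adjusted p = 7.07e-09) at 2 h. In MB468res-R8 the counts were 55688, 57521 and 59185 at 0 h, 51789, 50057 and 47384 at 0.5 h, and 51580, 51406 and 58209 at 2 h. They fell at 0.5 h, by 0.21 on the log2 scale (SE 0.05, edgeR adjusted p = 0.00391), and overlapped the counts of 0 h at 2 h, with a log2 fold change of -0.10 that did not pass. The fall at 0.5 h in MB468res-R8 was -0.16 and did not pass with spike-in scaling (edgeR adjusted p = 0.510). The difference between lines at 2 h was 0.49 (SE 0.08, edgeR adjusted p = 1.16e-04).

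Few of the other genes moved by 2 h. In MB468, 4 of the 10 genes were called at 0.5 h (1 higher, 3 lower, beside 34.1% of genes tested, 16.3% higher and 17.8% lower) and 3 at 2 h (1 higher, 2 lower, beside 16.5%, 8.5% higher and 7.95% lower). DNAJA1 was lower at both times, with log2 fold changes of -0.22 and -0.16, and HSF1 at 0.5 h only passed narrowly, at -0.14 (SE 0.05, edgeR adjusted p = 0.0475). The DNAJA1 call at 2 h was lost without replicate 2 of 0 h (edgeR adjusted p = 0.175), without replicate 1 of 2 h (0.0593) and without the replicate 2 of 2 h that stood apart (0.0700), and without that last library HSPB1 passed at 0.29 (0.0250), against 0.22 with it and -0.20 with spike-in scaling, neither of which passed. The HSF1 call was lost without any of the 3 libraries of 0 h or without replicate 1 or 2 of 0.5 h, with adjusted p from 0.0708 to 0.198. It was also lost in DESeq2's test (adjusted p = 0.0603). In MB468res-R8 at 0.5 h HSF1 stood at -0.12 (SE 0.05, edgeR adjusted p = 0.0677), and passed in DESeq2's test (0.0462). The difference between the lines in HSF1 was 0.01 and did not pass. Scaled to the spike-ins, 8 genes were lower in MB468 at 2 h and 0 higher, on a scale on which the median gene fell by 0.42. That scale called 9509 of the 14739 genes tested, 2.52% of them higher.

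In MB468res-R8, 3 genes were called at 0.5 h (2 higher, 1 lower, beside 33.7% of genes tested, 17.4% higher and 16.2% lower) and 2 at 2 h (both higher, beside 4.34%, 2.46% higher and 1.87% lower). HSPH1 was higher at 0.5 h, at 0.12 (SE 0.05, edgeR adjusted p = 0.0307), but not without replicate 1 or 2 of 0 h or replicate 1 or 2 of 0.5 h (adjusted p of 0.0858, 0.173, 0.0963 and 0.106). It did not pass in DESeq2's test (adjusted p = 0.0642). BAG3 was higher at 2 h, with normalized counts of 3122, 3415 and 2966 against 2586, 2874 and 2514 at 0 h. Its log2 fold change was 0.26 (SE 0.06, edgeR adjusted p = 0.0141), and the call was lost without replicate 1 or 3 of 0 h or replicate 2 of 2 h (adjusted p of 0.0715, 0.0977 and 0.141). For the difference between the lines, 0 of the 10 genes passed edgeR's test at 0.5 h. Of all genes tested, 3.01% passed (1.48% higher and 1.53% lower). At an unadjusted p under 0.05 in that test there were 4 of the 10, beside 2010 of the 14739 genes tested. DESeq2's test called 0 of the 10 as well, beside 516 of all genes. At 2 h HSPA8 and DNAJB1 passed, beside 5.09% of genes tested (2.25% higher and 2.84% lower). BAG3 missed at 0.30 (edgeR adjusted p = 0.0641) but passed in DESeq2's test (0.0338), without a filter (0.0351), with a spike-in factor as covariate (0.0217) and with spike-in scaling (0.66, 0.0147). It also passed without replicate 2 of MB468res-R8 at 0 h, replicate 1 of MB468 at 2 h or replicate 3 of MB468res-R8 at 2 h (edgeR adjusted p of 0.0183, 0.0143 and 0.0291).

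**Figure D3:**
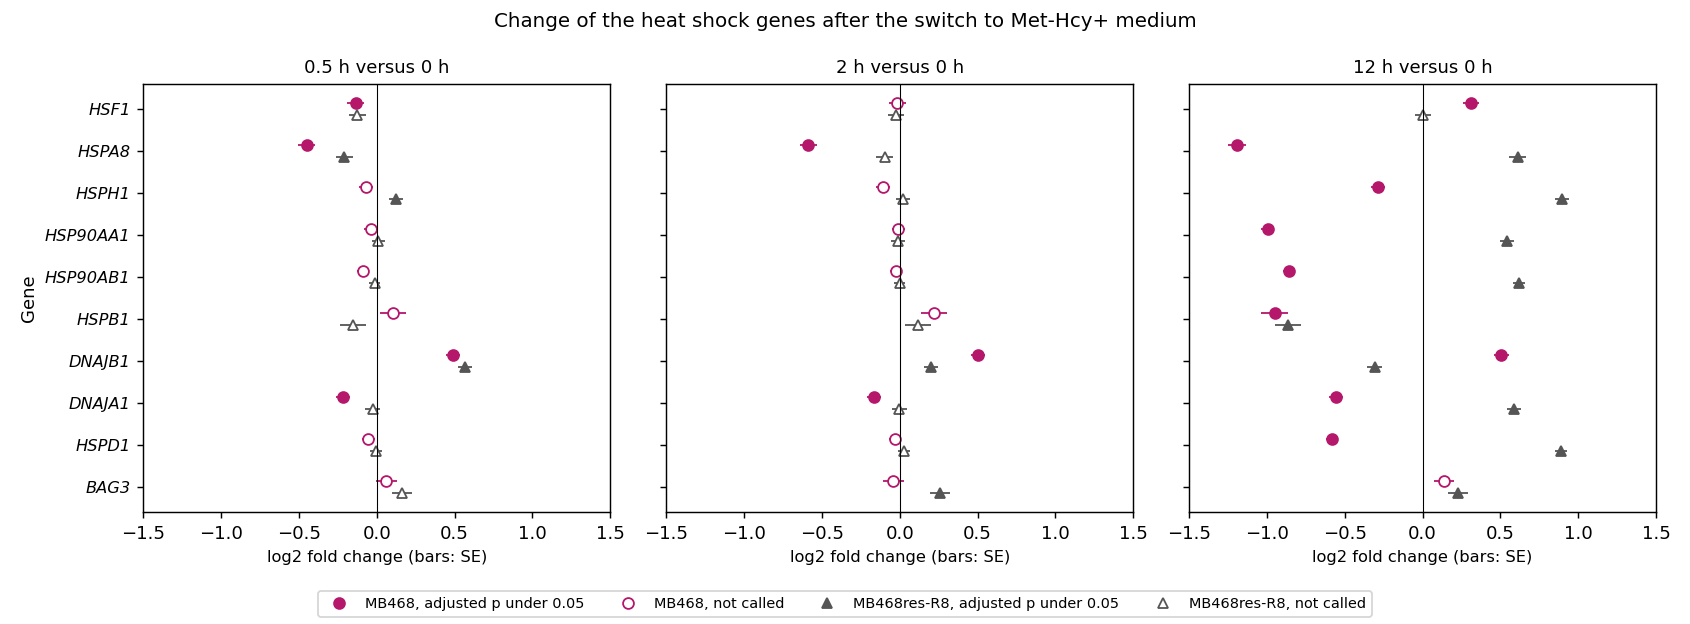
Log2 fold change against 0 h (horizontal axes) of each heat shock gene (vertical axis) at 0.5, 2 and 12 h in MB468 (circles) and MB468res-R8 (triangles), with bars of 1 SE. Filled symbols passed the test at an adjusted p under 0.05. At 12 h, 6 genes lay below 0 in MB468 and above 0 in MB468res-R8, and HSPB1 lay below 0 in both lines.

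At 12 h most of the chaperones fell in the Met-dependent line and rose in the Met-independent clone. In MB468, 7 of the 10 genes were lower and 2, HSF1 and DNAJB1, were higher, beside 70.6% of all genes called, 36% of them lower and 34.6% higher as shares of the genes tested. In MB468res-R8, 7 genes were higher and 2, HSPB1 and DNAJB1, were lower, beside 61.7% called, 32% higher and 29.7% lower. Their median log2 change was -0.57 in MB468 and 0.56 in MB468res-R8, against -0.02 and 0.00 over all genes tested. The difference between the lines passed for 8 genes, 6 of them with the higher response in MB468res-R8, beside 56.8% of genes tested (28.7% higher and 28.2% lower), with a median of 1.16 against -0.01 over all genes. With spike-in scaling the same comparisons called 8, 8 and 7 of the 10 genes, beside 8459, 5884 and 5796 of the 14739 genes tested. The median gene then stood at -0.23 in MB468, 0.00 in MB468res-R8 and 0.20 for the difference. Of all genes called in MB468, 30.0% were higher in place of 49.0%. For the difference it was 69.9% in place of 50.4%.

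HSPA8 showed the widest split between the lines. Its normalized counts at 12 h were 27287, 29866 and 31519 in MB468 and 87586, 89871 and 86041 in MB468res-R8. Each set lay apart from the counts at 0 h given above, below them in MB468 and above them in MB468res-R8. The log2 fold change was -1.19 (SE 0.06, edgeR adjusted p = 1.54e-16) in MB468 and 0.61 (SE 0.05, adjusted p = 2.77e-10) in MB468res-R8, and the difference was 1.80 (SE 0.08, adjusted p = 1.21e-16), a 3.49-fold difference in response.

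HSPH1, the nucleotide exchange factor of HSP70, rose in MB468res-R8 from the 0 h counts given above to 11504, 12209 and 11747. In MB468 it stood at 7118, 7203 and 7429, below its 3 libraries of 0 h. Its log2 fold change was 0.90 (SE 0.04, edgeR adjusted p = 4.76e-20) in MB468res-R8 and -0.28 (SE 0.04, adjusted p = 3.88e-07) in MB468. The difference was 1.18 (SE 0.06, edgeR adjusted p = 5.48e-19). Its rise put HSPH1 above MB468 at 12 h, although the clone had started below. Between 2 and 12 h in MB468, the change of -0.18 was called, but with spike-in scaling it was 0.02 and was not (edgeR adjusted p = 0.882).

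The HSP90 genes moved together in both lines. HSP90AA1 had normalized counts of 46457, 47435 and 44646 at 0 h and 22302, 23476 and 23716 at 12 h in MB468, and of 43860, 41459 and 44919 and then 60950, 65197 and 63464 in MB468res-R8. HSP90AB1 had 61287, 61886 and 59009 and then 32460, 33759 and 34396 in MB468, and 56819, 54375 and 57431 and then 86344, 87716 and 85315 in MB468res-R8. For both genes all libraries of 12 h lay below those of 0 h in MB468 and above them in MB468res-R8. The log2 fold changes were -0.996 (SE 0.0432) and 0.54 (SE 0.04) for HSP90AA1, and the difference was 1.54 (SE 0.06, edgeR adjusted p = 8.83e-23). They were -0.86 (SE 0.04) and 0.62 (SE 0.04) for HSP90AB1, and the difference was 1.48 (SE 0.05, edgeR adjusted p = 2.63e-24). At 2 h HSP90AA1 stood at -0.01 in both lines and HSP90AB1 at -0.02 and 0.00, and neither passed the test.

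HSPD1, the chaperonin that folds proteins imported into mitochondria, followed the HSP90 genes. Its counts went from 27016, 27955 and 26581 to 18255, 18559 and 17619 in MB468, whereas MB468res-R8 had 21516, 20602 and 21437 and then 38065, 40124 and 39412. The libraries of 0 and 12 h did not overlap in either line. The difference between the lines was 1.47 (SE 0.06, edgeR adjusted p = 1.85e-23), from log2 fold changes of -0.58 and 0.89. HSPE1, the lid of the same chaperonin, is transcribed from the opposite strand next to HSPD1 and changed by -0.72 and 0.63, with a difference of 1.35 (SE 0.19, edgeR adjusted p = 1.25e-07). HSPE1 was counted at only 109.7 ± 9.70 to 268.8 ± 35.8 normalized counts per group, and the annotated gene HSPE1-MOB4, which overlaps it, had 0 counts in every library, so how many of its reads were left uncounted is uncertain.

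The 2 J-domain genes moved in opposite directions in both lines at 12 h, as they had in MB468 at 0.5 and 2 h. DNAJA1 moved with HSPA8, from 6540, 7143 and 6419 to 4533, 4681 and 4486 normalized counts in MB468, whereas MB468res-R8 had 5944, 5385 and 5947 and then 8396, 9105 and 8459. DNAJB1 moved the other way, at 10305, 10099 and 10181 in MB468 and 5759, 5826 and 5969 in MB468res-R8. Its MB468 counts were near those of 0.5 and 2 h, and its MB468res-R8 counts lay below those of 0 h. The difference between the lines was 1.14 (SE 0.06, edgeR adjusted p = 3.68e-18) for DNAJA1 and -0.81 (SE 0.07, adjusted p = 9.70e-14) for DNAJB1. From 0 h, DNAJB1 changed by 0.51 (SE 0.05) in MB468 and -0.31 (SE 0.05) in MB468res-R8, and both passed the test.

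HSPB1 fell in both lines. It went from the 0 h counts given above to 4331, 4156 and 4731 in MB468 and to 9000, 8435 and 8782 in MB468res-R8. The lines kept apart, with MB468res-R8 at 12 h near MB468 at 0 h. The log2 fold changes were -0.95 (SE 0.09, edgeR adjusted p = 1.08e-08) and -0.87 (SE 0.08, adjusted p = 4.81e-08). The difference of 0.08 (SE 0.12) did not pass (edgeR adjusted p = 0.583).

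HSF1, the transcription factor itself, rose in MB468 from 3217, 3226 and 3155 to 3856, 3771 and 4272 normalized counts, and stood at 3525, 3422 and 3372 and then 3800, 3141 and 3394 in MB468res-R8. The rise of 0.31 (SE 0.05, edgeR adjusted p = 1.80e-06) in MB468 and the difference between the lines of -0.31 (SE 0.07, adjusted p = 4.98e-04) passed. With spike-in scaling they were 0.09 and -0.10 and did not pass (adjusted p of 0.550 and 0.697). BAG3 stood at 0.14 (SE 0.07, edgeR adjusted p = 0.0621) in MB468, or -0.08 with spike-in scaling, and rose by 0.23 (SE 0.06, adjusted p = 0.00288) in MB468res-R8, where spike-in scaling ended the call (0.23, adjusted p = 0.149). The MB468 change passed without replicate 2 of 0 h or without replicate 1 or 2 of 12 h, at 0.18 each (adjusted p of 0.0303, 0.0326 and 0.0317). The level of HSF1 RNA does not measure the activity of the protein.

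As a share of all gene counts, the 10 genes took 1.04 ± 0.0223% (SD, n = 3) in MB468 at 0 h and 0.644 ± 0.0181% at 12 h. In MB468res-R8 they took 0.960 ± 0.0210% at 0 h and 1.35 ± 0.0249% at 12 h. Most of this was HSPA8, HSP90AB1, HSP90AA1 and HSPD1, whose counts were the highest. Against 2 h, 9 genes were called at 12 h in MB468 (2 higher and 7 lower, beside 69.9% of genes tested, 33.7% higher and 36.1% lower) and 8 in MB468res-R8 (6 higher and 2 lower, beside 62.9%, 32.5% higher and 30.3% lower).

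Among the 6430 other genes with at least 5 on the log2 CPM scale, NMT1, MTR and SNX12 followed HSPA8 most closely over the means of the 8 groups, with Pearson's r of 0.985, 0.983 and 0.970. MTR encodes methionine synthase, which makes Met from Hcy. For HSPH1 the closest were GOT2 (0.986), IPO5 (0.984) and ELP2 (0.980). For DNAJB1 they were MAPKBP1 (0.930), CSRNP1 (0.921) and CSNK1G3 (0.915), and for BAG3 they were SCD5 (0.974), SLC30A5 (0.970) and MIIP (0.969). These are the highest of many values over 8 points that share their libraries, and are given as a description.

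The partners of the chaperones were described from hand-written lists. At 12 h their shares called stand beside those of all genes tested, which were 70.6% in MB468 (34.6% higher, 36% lower), 61.7% in MB468res-R8 (32% higher, 29.7% lower) and 56.8% for the difference between lines. TRiC is the cytosolic chaperonin that folds actin and tubulin, and prefoldin delivers its clients. Of 13 tested genes of these complexes, 8 were lower and 2 higher in MB468 at 12 h, while 11 were higher and 0 lower in MB468res-R8, and the difference was higher in MB468res-R8 for 12. That is 76.9%, 84.6% and 92.3% called. Its median was 0.77, with -0.19 in MB468 and 0.55 in MB468res-R8. The subunits CCT3 (-0.59) and CCT4 (-0.54) fell most in MB468 and PFDN4 (0.29) and PFDN2 (0.18) rose, and CCT6A (0.63) and TCP1 (0.61) rose most in MB468res-R8.

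Of 20 HSP90 partners, 10 were lower and 5 higher in MB468 and 16 were higher and 2 lower in MB468res-R8 at 12 h, and the difference was higher for 14 and lower for 2. The 75% called in MB468 was near the share of all genes, beside 90% in MB468res-R8 and 80% for the difference. CACYBP (-0.67) and PTGES3 (-0.56), the p23 cochaperone, fell most in MB468, where TTC4 (1.34) and FNIP1 (0.60) rose most. In MB468res-R8 CHORDC1 (1.45) and PPID (0.99) rose most and AHSA2 (-0.39) and UNC45A (-0.13) fell. GENCODE held no gene under the symbol AHSA2, so whether it encodes a partner protein was not checked. CHORDC1, whose window holds the 3-unit element, stood at 0.13 in MB468, which did not pass.

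Of 22 HSP70 partners tested, 11 were lower and 6 higher in MB468 and 9 were higher and 3 lower in MB468res-R8 at 12 h. These shares of 77.3% and 54.5% were near those of all genes. BAG4 (1.65) and BAG5 (1.32) rose most and HSPA2 (-1.62) and ST13 (-0.76) were among those that fell most in MB468. BAG2 (1.11) and DNAJC2 (0.94) rose most in MB468res-R8, while BAG6 (-3.62) and HSPA2 (-1.67) fell. The BAG6 value is uncertain, as its 3 libraries of MB468res-R8 at 0 h ran from 22.9 to 926.9 normalized counts.

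The stress-inducible HSP70 genes were counted at low levels. HSPA1A fell in MB468 from 615.2 ± 49.4 normalized counts at 0 h to 383.6 ± 21.2 at 12 h (SD, n = 3), and stood at 459.3 ± 43.5 and 406.3 ± 37.5 in MB468res-R8. Its log2 fold changes were -0.68 (called) and -0.16 (not called), with a difference of 0.52 that passed. At 0.5 h HSPA1A was higher in MB468res-R8, at 0.36 (SE 0.10, edgeR adjusted p = 0.00489), and not called in MB468 (-0.19), with a difference of 0.55 that passed (adjusted p = 0.0216). HSPA1B, its near-identical neighbour, had 17.7 ± 4.65 and 10.2 ± 4.18 normalized counts in MB468, so both values are uncertain because reads shared between the copies cannot be assigned. HSPA6 had 0 to 14 raw counts in each library and was too low to be tested.

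In the list written for the other small heat shock proteins, 4 of 10 genes were tested at 12 h. CRYAB (-0.71) and HSPB11 (-0.45) fell in MB468, and HSPB8 (-3.00), HSPB2 (-1.64) and CRYAB (-0.60) fell in MB468res-R8. GENCODE held no gene under the symbol HSPB11, so its place in this list rests on its name only. HSPB8 and HSPB2 were near the lower limit of counting, at 11.6 ± 3.58 and 31.5 ± 4.62 normalized counts (SD, n = 3) in MB468res-R8 at 0 h. CRYAB was also higher in MB468res-R8 at 0 h, by 1.84 on the log2 scale, as HSPB1 was. In the list of HSF family genes, regulators and others, 14 were tested, and 6 were higher and 7 lower in MB468. HSF2BP (1.87) and EP300 (0.86) led upward there, and HDAC6 (-1.03) and VCP (-0.71) downward. In MB468res-R8, 7 were higher and 3 lower, led by HSF2 (0.72) and EP300 (0.33) upward and by HDAC6 (-0.86) and SQSTM1 (-0.55) downward, with 92.9% of the list called in MB468 and 71.4% in MB468res-R8. Of 15 mitochondrial chaperones and proteases, 7 were higher and 5 lower in MB468 and 9 were higher and 1, LONP1 (-0.40), lower in MB468res-R8, and the shares called of 80% and 66.7% were near those of all genes. GRPEL2 (1.51) and HTRA2 (0.60) rose most in MB468, where HSPE1 and SPG7 (-0.67) fell most, and HSPE1 and CLPX (0.57) led in MB468res-R8. The highest value there, DNAJA3 at 3.89, did not pass the test (edgeR adjusted p = 0.0706, named after its value was seen).

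**Figure D4:**
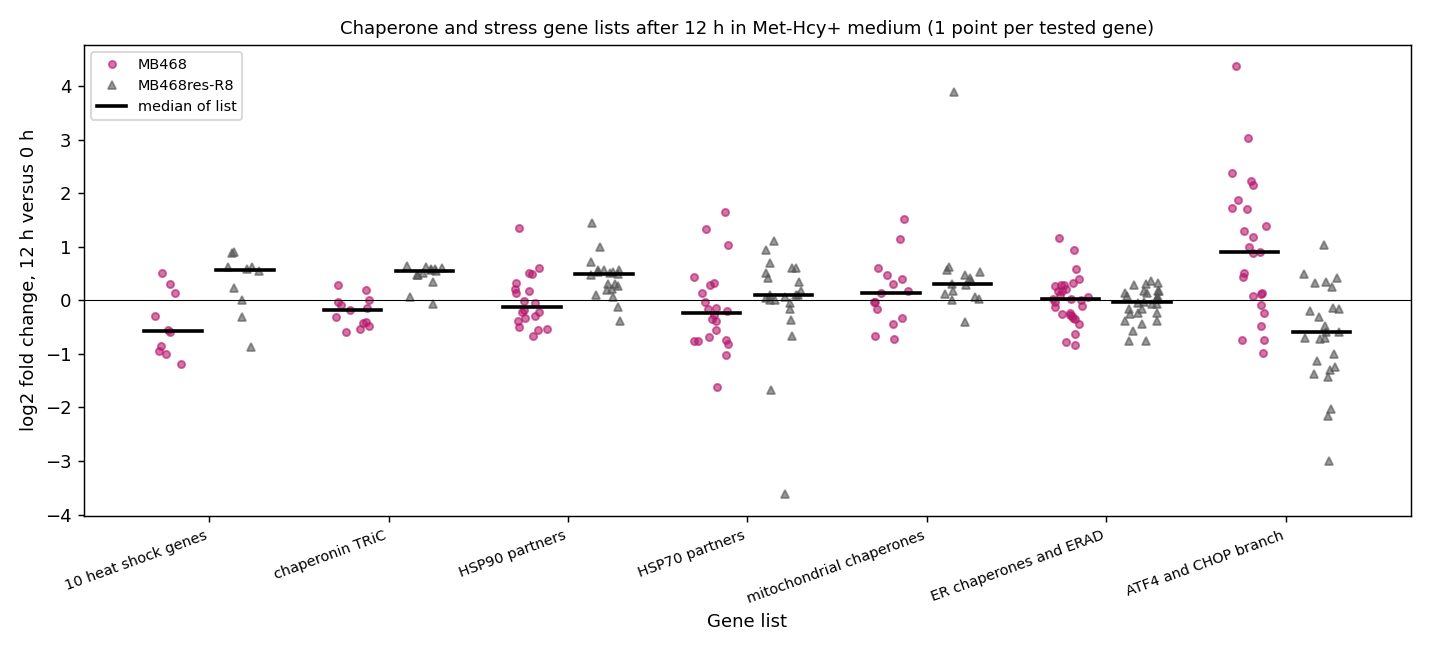
Log2 fold change at 12 h against 0 h (vertical axis) of every tested gene in 7 lists (horizontal axis) in MB468 (circles) and MB468res-R8 (triangles), with black bars at the medians of the lists. The medians of the heat shock genes were -0.57 and 0.56, those of the ER list 0.02 and -0.04, and those of the ATF4 and CHOP list 0.90 and -0.60.

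Set against the heat shock genes, ER genes were called in both directions in both lines. Of 29 tested ER chaperones and ERAD genes, 12 were higher and 12 lower in MB468 at 12 h, and 9 were higher and 10 lower in MB468res-R8. The shares called were 82.8% and 65.5%, and calls over all genes also split about evenly in direction. HSPA5, the main ER HSP70, changed by 0.28 in MB468 and -0.08 in MB468res-R8, and the difference of -0.36 passed. HSP90B1, the ER HSP90, fell in MB468 (-0.24) and rose in MB468res-R8 (0.28), with a difference of 0.52 that passed. ERN1 (1.17) and DNAJB9 (0.95) rose most and SIL1 (-0.84) and PDIA4 (-0.78) fell most in MB468, and CANX (0.36) and UGGT1 (0.32) rose most and HERPUD1 and XBP1 (-0.76 each) fell most in MB468res-R8. The median difference between the lines was -0.01, as it was for all genes.

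The ATF4 and CHOP branch acts downstream of the kinase sensor, but the paper also ties ASNS, a gene of the list, to the amino acid response. Which signal acted here was not tested. The list of this branch mostly rose in MB468 and fell in MB468res-R8. Of its 25 genes, 18 were higher and 5 lower in MB468 at 12 h, and 5 were higher and 18 lower in MB468res-R8, which is 92% called in each line. The difference was lower in MB468res-R8 for 21 genes and higher for 0, with a median of -1.19. DDIT3, which encodes CHOP, went from 81.5 ± 10.8 to 426.7 ± 18.6 normalized counts (SD, n = 3) in MB468, whereas MB468res-R8 had 100.9 ± 9.93 and then 120.2 ± 17.1, with log2 fold changes of 2.37 and 0.25. ATF4 itself changed by 0.11 and -0.21. CHAC1 (4.37) and SESN2 (3.03) rose most and ASNS (-0.98) and PHGDH (-0.75) fell most in MB468, and DDIT4 (1.04) and CEBPB (0.50) rose most and GDF15 (-3.00) and ATF3 (-2.16) fell most in MB468res-R8. These lists were not tested against the heat shock genes, and their genes share the libraries.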

How the data were processed

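Poly(A) RNA for 24 libraries (2 lines, 4 times, 3 replicates) was sequenced as single-end reads with ERCC spike-in RNAs. Per the study's methods and the submitters' processing notes, the authors aligned reads with HISAT2 2.1.0 to GRCh38 plus the ERCC sequences, and gene counts were made by featureCounts (Subread 1.5.3). The annotation release is not given in the sources used here. The deposited values used are these raw gene counts, which were not normalized. A deposited table of DESeq2-normalized counts held 18 of the libraries, and another held the authors' own fold changes and p-values, and neither was used. The kit does not mark strand, so overlapping antisense genes cannot be told apart.

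Of 26645 entries, 4 repeated a symbol with identical counts and were dropped. The 92 spike-ins (0.256 ± 0.0282% of counts, SD, n = 24) were kept out of library sizes. Genes were filtered with filterByExpr (minimum count 10, minimum total 15), scaled by TMM and fitted in edgeR 4.0.16 under R 4.3.3 with robust quasi-likelihood, with 1 mean for each of 8 groups. The 12 comparisons were each adjusted over 14739 genes, and SE is the log2 fold change over the square root of F. Adjusted p-values in the text come from edgeR unless DESeq2 (1.42.0) is named. The members and lists were chosen with earlier results of these data known. All 10 members are named, and in each list the called genes with the 2 largest changes in each direction at 12 h, plus HSPA1A, HSPA1B, HSPA6, HSPE1, HSPA5, HSP90B1, DDIT3 and ATF4. The scripts were tested on simulated data. All 24 within-group pairs of libraries differed by more than sampling noise. No block entered the fit, as the methods name none and the labels do not say what a replicate number shares. Same-numbered libraries did not deviate together in every pair of any comparison. The highest mean correlation of their deviations was 0.275, for MB468res-R8 at 2 h against 0 h. Promoter sequences came from RefSeq (GRCh38.p14) and positions from GENCODE.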

Additional observations from a re-analysis of the deposited data

Results flagged for a closer look

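The change from 0 h differed between the lines, by edgeR's test of the difference itself, for 2 of the 10 heat shock genes at 2 h and for 8 at 12 h. Of all genes tested, 5.09% differed at 2 h and 56.8% at 12 h. The values below are the log2 change in MB468res-R8 minus that in MB468. At 2 h it was 0.49 for HSPA8 and -0.31 for DNAJB1. At 12 h it was 1.80 for HSPA8, 1.54 for HSP90AA1, 1.48 for HSP90AB1, 1.47 for HSPD1, 1.18 for HSPH1 and 1.14 for DNAJA1. It was -0.81 for DNAJB1 and -0.31 for HSF1 at that time. With spike-in scaling, DNAJB1 at 2 h (0.06) and HSF1 at 12 h (-0.10) did not pass (edgeR adjusted p of 0.780 and 0.697). The clone is a single one, so a difference between lines and a difference of this clone cannot be told apart.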

How the results depend on the processing

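Across other settings (DESeq2 size factors, DESeq2's Wald test, spike-in scaling, a spike-in factor as covariate, other filters, a stricter threshold, only the groups compared and a replicate block), 1029 results kept their side of the threshold, 990 with the same sign and 39 uncalled ones with the sign changed, while 25 gained a call, 23 lost one and 3 changed sign with a call in 1 of the fits. Leaving out 1 library at a time kept 864 on their side of the threshold, 60 of them uncalled with the sign changed, with 14 calls gained and 22 lost. Spike-in totals changed the sign of 15 of the 39 uncalled values and of the 3 with a call: DNAJB1 between the lines at 0 h (-0.28), HSPH1 in MB468 from 2 to 12 h (0.0246) and DNAJB1 between the lines at 2 h (0.0647). The number of heat shock genes called in MB468 at 2 h was 8 with spike-in totals in place of 3, beside 9509 of all genes tested in place of 2425. In MB468res-R8 at 0.5 h it was 1 with spike-in totals and 5 with only the groups compared in place of 3. Of all genes, 2022 and 5062 (of 13759 tested) were then called in place of 4960. In MB468res-R8 at 2 h the heat shock genes called were 1 at an adjusted p under 0.01 and 0 with spike-in totals in place of 2. Of all genes, 391 and 180 were then called in place of 639. With 1 library left out, 0 to 2 heat shock genes were called, beside 347 to 667 of all genes. For the difference at 0.5 h, 1 heat shock gene was called without a filter and 1 with only the groups compared in place of 0 (HSPA8 in both). Of all genes, 475 (of 21281 tested) and 415 (of 14288) were then called in place of 443. With 1 library left out, 0 to 1 heat shock genes were called, beside 283 to 451 of all genes. The causes were not tested. With the replicate block, 3 heat shock genes were called in MB468 at 0.5 h in place of 4, beside 4926 of all genes in place of 5021. HSF1 missed the threshold (edgeR adjusted p = 0.0522), and no other call of the heat shock genes changed. Same-numbered libraries share only a number. HSPE1, HSPA1B, HSPA6, HSPB8 and HSPB2 were limited by low counts.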
